A study of Mus musculus with 12 samples.

Results

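The subunits of the interleukin-12 (IL-12) family of cytokines were followed in RNA-seq data of bone marrow-derived dendritic cells (BMDCs). Il12a, Il12b, Il23a, Il27 and Ebi3 were taken by their symbols, and all 5 were found among the 41709 genes counted. The rule that took them used gene symbols only, although the members were chosen with earlier results of these data known. The data comprised 12 libraries in 4 groups of 3. CD18fl/fl BMDCs came from mice without Cre, and CD18CD11c cKO BMDCs (labelled CD18ΔCD11c) came from littermates that carried Cre recombinase under the CD11c promoter. Both genotypes, the controls included, were homozygous for a CD18 allele with a floxed exon 3, and CD18 is the common β chain of the β2 integrins. Bone marrow cells were cultured for 10 days with GM-CSF, left untreated or stimulated with 100 ng/mL lipopolysaccharide (LPS), and enriched for MHCII-positive cells with magnetic beads. The labels give 24 h of LPS, whereas the study's methods describe overnight stimulation. The age of the mice is not given in the sources used here, nor whether the 3 libraries of a group came from separate animals or cultures, so p-values measure the spread between these libraries, which may be technical.

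IL-12 family cytokines are heterodimers, each made of an α chain that resembles a helical cytokine and a β chain that resembles a soluble cytokine receptor. Il12a (p35) and Il12b (p40) form IL-12, Il23a (p19) and Il12b form IL-23, Il27 (p28) and Ebi3 form IL-27, and Il12a and Ebi3 form IL-35. IL-12 drives T cells and NK cells towards interferon-γ production, IL-23 sustains IL-17-producing T cells, and IL-27 and IL-35 are known mainly for restraining T cell responses. Dendritic cells and macrophages are major sources of IL-12, IL-23 and IL-27 once receptors for microbial products such as LPS are engaged, and the p40 gene in particular is a standard marker of dendritic cell activation.

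On the GRCm39 assembly, which the coordinates in the deposited tables follow, the 5 genes lay on 5 chromosomes. Il12a (ENSMUSG00000027776) spanned chr3:68597977-68605880 on the plus strand, Il12b (ENSMUSG00000004296) chr11:44290890-44304860 on the plus strand, and Ebi3 (ENSMUSG00000003206) chr17:56259640-56264022 on the plus strand. Il23a (ENSMUSG00000025383) spanned chr10:128132008-128134621 and Il27 (ENSMUSG00000044701) chr7:126188182-126194113, both on the minus strand. Il12a, Il12b and Ebi3 were the subunits with the clearest LPS response, and RefSeq promoter sequences were at hand for these 3 of the 5. The 250 bases before a RefSeq transcript start of each are printed 5′ to 3′. Left out was 1 further RefSeq start of these genes. Only starts with a single match to the genome and within 100 bases of the gene start in the deposited tables were kept. Every one of the 3 windows matched GRCm39 exactly and at a single place, which was chr3:68597727-68597976 for Il12a, chr11:44290640-44290889 for Il12b and chr17:56259373-56259622 for Ebi3, all on the plus strand. The RefSeq start of Ebi3 lay 17 bases before the gene start in the deposited tables. Capitals mark matches, on either strand, to 6 letter patterns known from promoters of cytokine genes.
Il12a: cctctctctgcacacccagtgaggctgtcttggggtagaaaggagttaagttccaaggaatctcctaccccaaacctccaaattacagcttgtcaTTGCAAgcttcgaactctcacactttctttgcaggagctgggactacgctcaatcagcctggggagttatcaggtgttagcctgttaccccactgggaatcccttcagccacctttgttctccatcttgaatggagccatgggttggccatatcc
Il12b: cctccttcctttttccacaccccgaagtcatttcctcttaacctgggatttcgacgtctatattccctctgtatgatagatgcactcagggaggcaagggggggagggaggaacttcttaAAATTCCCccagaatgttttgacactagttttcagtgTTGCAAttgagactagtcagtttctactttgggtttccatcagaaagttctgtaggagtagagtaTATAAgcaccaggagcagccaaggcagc
Ebi3: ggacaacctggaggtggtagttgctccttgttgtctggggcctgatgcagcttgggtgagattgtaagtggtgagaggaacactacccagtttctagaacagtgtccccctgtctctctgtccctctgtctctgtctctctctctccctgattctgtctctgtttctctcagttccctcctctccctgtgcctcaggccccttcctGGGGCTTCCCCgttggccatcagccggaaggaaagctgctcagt

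The patterns searched were GGG, any 5 bases and CC for NF-κB, GGGAATTT for a shorter NF-κB pattern, TTGCAA for the core of a C/EBP site, TGANTCA (N standing for any base) for AP-1, GAAA, any 2 bases and GAAA for an interferon response element, and TATAA for a TATA box. TTGCAA was found at -155 in Il12a and at -93 in Il12b, counted in bases from the transcript start. Il12b also held AAATTCCC, which is GGGAATTT read from the other strand, at -130 and TATAA at -28. In Ebi3, 2 overlapping matches to the longer NF-κB pattern, each counted on both strands, began at -44 and -43. Among 32851 RefSeq promoter windows of the same length, 45.8% held the longer NF-κB pattern, 0.843% GGGAATTT, 5.34% TTGCAA, 6.75% TGANTCA, 2.98% the interferon pattern and 22.8% TATAA. The AP-1 and interferon patterns were in 0 of the 3 windows. These matches describe letters and were not tested as binding sites.

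The libraries held 29689149 to 34037178 total gene reads, of which 95.1% to 96.2% mapped to 1 place. Levels are given as TMM-scaled RPKM, that is, total gene reads per kilobase of exon relative to the library total after TMM scaling between libraries, with the SD of 3 libraries after a mean. Itgb2, which encodes CD18, averaged 129 ± 7.55 in untreated CD18fl/fl and 51.7 ± 11.4 in untreated cKO BMDCs, and 66.0 ± 18.4 and 35.2 ± 5.12 after LPS. Its lowest CD18fl/fl library lay above the highest cKO library in both states (124 against 62.1 untreated, 54.8 against 38.9 after LPS), but it passed the edgeR test only in a fit that blocks on the replicate number, in which it was lower in cKO BMDCs by -1.29 (edgeR adjusted p = 0.00392) and -0.91 (edgeR adjusted p = 0.0201) on the log2 scale, against edgeR adjusted p values of 0.0887 and 0.428 without the block. The counts cover the whole gene, of which exon 3 is the part deleted. The dendritic cell markers H2-Aa, H2-Ab1 and Cd74, which encode and chaperone MHC class II, were at 1363 or more in every library, whereas Zbtb46, a transcription factor of conventional dendritic cells, was at 2.94 to 5.60. Macrophage genes were present as well, with C1qa at 111 to 253 in untreated libraries. The libraries with replicate number 3 stood apart in all 4 groups. Irf8, a transcription factor of dendritic cells, was 4.92 to 7.52 times lower in them than the mean of replicates 1 and 2, and Flt3, the receptor for a dendritic cell growth factor, 7.11 to 52.5 times lower, whereas Itgax, which encodes CD11c, was 2.36 to 8.30 times higher. Libraries with the same number in different groups deviated together from their group means (r of 0.265 to 0.716 over 12 pairs). The highest values were those of replicate 3 (0.524 to 0.716). Among replicates 1 and 2, r was 0.265 to 0.451 for the same number and 0.154 to 0.334 for different numbers, so these ranges overlapped. Every comparison was also tested with a term for replicate number, called the replicate block.

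In untreated CD18fl/fl BMDCs, Il12b had the highest mean level of the 5 genes and Il23a the lowest. Il12b stood at 113, 63.6 and 1.44 RPKM in replicates 1, 2 and 3, so the third library was far below the other two. In bulk RNA, fewer cells of a type and less RNA per cell cannot be told apart. Ebi3 was even, at 15.7, 16.1 and 17.2 RPKM. Il27 was at 0.788, 1.23 and 2.07 RPKM and Il12a at 0.0810, 0 and 0.585 RPKM. Il12a therefore rested on 4, 0 and 30 reads. Il23a had 0, 0 and 18 reads. By mean RPKM the order was Il12b, Ebi3, Il27, Il12a and Il23a. Il12b and Ebi3 did not differ beyond their spread, since Il12b was the higher in 2 of 3 libraries, and the ranges of Il12a and Il23a also overlapped.

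Untreated cKO BMDCs gave the same order of mean RPKM. Il12b was again uneven, at 103, 93.4 and 5.12 RPKM, with replicate 3 the lowest. Ebi3 was at 14.8, 11.3 and 13.9 RPKM and Il27 at 0.244, 0.0980 and 0.396 RPKM. The Il27 values came from 7, 3 and 14 reads, each below every untreated CD18fl/fl library, which had 29, 50 and 79. Il12a had 1, 13 and 5 reads and Il23a 0, 0 and 2, so both were near or under the floor of 3 reads. Intervals and floors of this kind cover counting error only, because PCR copies of a molecule are counted as separate reads.

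**Figure D1:**
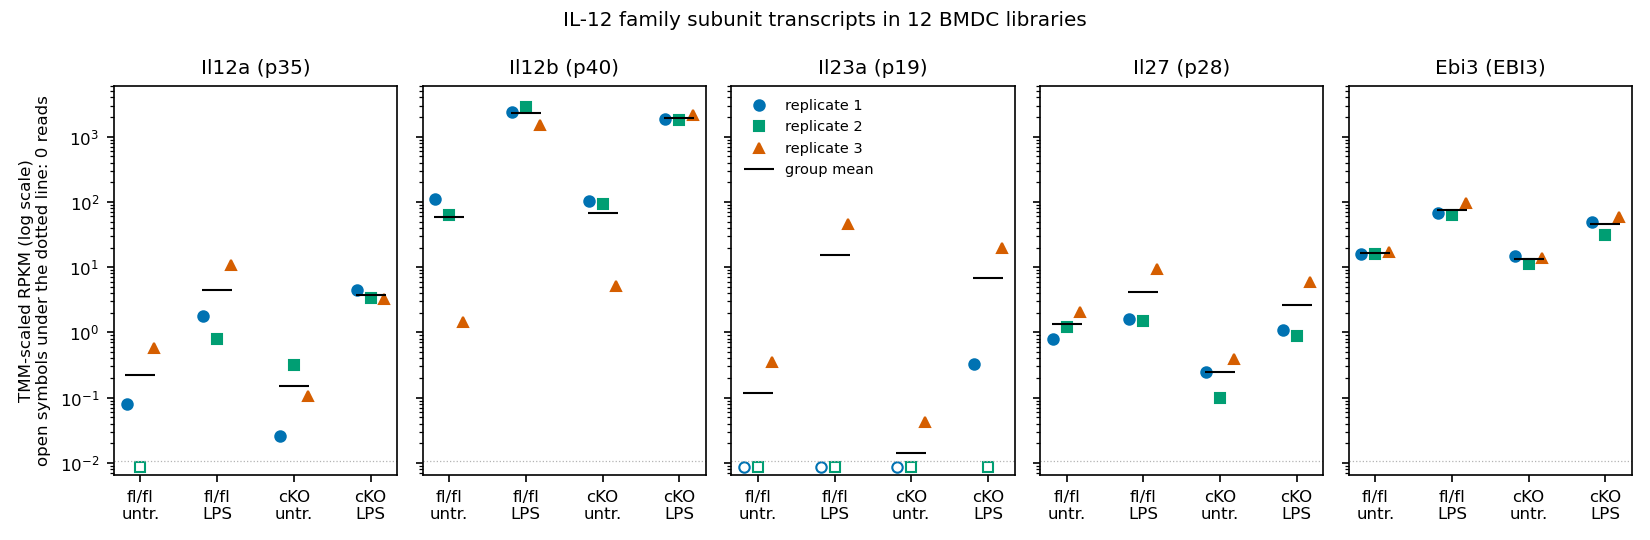
Each panel shows the TMM-scaled RPKM (log axis) of 1 subunit gene in the 12 libraries, by group on the horizontal axis, with a symbol and color for each replicate number and a black dash for the group mean. Open symbols under the dotted line are libraries with 0 reads. Il12b and Ebi3 were higher in all 6 LPS libraries than in any untreated one, and Il23a was seen mainly in the replicate 3 libraries.

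After LPS, the p40 gene was among the most abundant transcripts of the cells. Il12b stood at 2421, 2867 and 1538 RPKM in CD18fl/fl BMDCs and 1852, 1835 and 2191 RPKM in cKO BMDCs. It ranked 24th, 26th and 54th among all genes by RPKM in the former and 69th, 76th and 61st in the latter. In the CD18fl/fl libraries it took 0.462%, 0.497% and 0.350% of all reads. The replicate 3 libraries, which had the least Il12b before LPS, were afterwards the lowest of the CD18fl/fl group, at 1538 RPKM, and the highest of the cKO group, at 2191 RPKM. Between same-numbered libraries, the LPS level was 21.5, 45.1 and 1068 times the untreated level in CD18fl/fl and 18, 19.7 and 428 times in cKO BMDCs.

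Ebi3, the shared β chain of IL-27 and IL-35, varied least of the 5 genes among untreated libraries of each genotype. It stood at 68.6, 63.0 and 95.1 RPKM in CD18fl/fl and at 48.7, 30.8 and 59.8 RPKM in cKO BMDCs after LPS. Every LPS library exceeded every untreated library of either genotype, by 4.39, 3.90 and 5.54 times in same-numbered CD18fl/fl libraries and by 3.3, 2.72 and 4.31 times in cKO libraries. Its partner in IL-27 moved less evenly. Il27 was at 1.60, 1.49 and 9.28 RPKM in CD18fl/fl and at 1.07, 0.880 and 5.87 RPKM in cKO BMDCs after LPS, highest in replicate 3 of both. In CD18fl/fl BMDCs the LPS and untreated libraries overlapped for Il27, and in cKO BMDCs they did not.

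Il12a, the α chain of IL-12 and IL-35, stayed far below p40. After LPS it was at 1.78, 0.787 and 10.6 RPKM in CD18fl/fl BMDCs, from 76, 29 and 574 reads. In cKO BMDCs it was at 4.47, 3.41 and 3.26 RPKM, from 151, 104 and 138 reads. The cKO libraries were thus close together and lay within the wide CD18fl/fl range. Same-numbered LPS libraries had 22, at least 14.3 and 18.2 times the untreated level in CD18fl/fl, the bound being set by 0 untreated reads and a floor of 3 in replicate 2, and 10.8 and 30.9 times in replicates 2 and 3 of cKO BMDCs. The value of 22 divides by 4 untreated reads that all lay in introns, so it rests on no untreated exon read.

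Il23a was a gene of the replicate 3 libraries. In CD18fl/fl BMDCs after LPS it had 0 reads in replicates 1 and 2 and 2474 in replicate 3, which is 46.2 RPKM. In cKO BMDCs after LPS it had 11, 0 and 836 reads, or 0.328, 0 and 19.9 RPKM. The 11 reads were made up of 4 in exons and 7 in introns. At this depth a library with 0 reads allows up to 3, so Il23a was not detectable in replicates 1 and 2 of CD18fl/fl BMDCs. Il12b, which IL-23 needs as well, was high in all 6 of these libraries. After LPS the order of mean RPKM was Il12b, Ebi3, Il23a, Il12a and Il27 in both genotypes, and the ranges of the last 3 overlapped.

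In the test of LPS against no stimulation in CD18fl/fl BMDCs, 1 of the 5 genes passed, and it was Ebi3, with a log2 fold change of 2.22 (SE 0.25, edgeR quasi-likelihood test with Benjamini-Hochberg adjustment, adjusted p = 0.0138). Of the 12744 genes tested, 3.89% were called, 2.06% as higher. Il12b had the larger log2 fold change of 5.26 but an SE of 1.34 (edgeR adjusted p = 0.0792), and Il12a one of 4.32 with an SE of 1.57 (edgeR adjusted p = 0.160). The Il27 value was 1.61 with an SE of 0.84 (edgeR adjusted p = 0.290). Il23a did not pass the filter on low counts and was not tested.

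With the replicate block, 3 of the 5 rose in CD18fl/fl BMDCs, where the background of higher calls was 6.33%. The log2 fold changes were 6.31 (SE 1.23, edgeR adjusted p = 0.0272) for Il12b, 4.65 (SE 0.65, edgeR adjusted p = 0.0114) for Il12a and 2.19 (SE 0.23, edgeR adjusted p = 0.00601) for Ebi3. Il27 did not pass (1.18, SE 0.52, edgeR adjusted p = 0.177). On replicates 1 and 2 alone, a choice made after seeing the data, Il12b gave 4.91, Il12a 4.94 and Ebi3 2.05, and all 3 passed, as did 23.2% of genes in that direction, while Il27 gave 0.61 (edgeR adjusted p = 0.471). The normalized values of the 2 groups did not overlap for 3 of the 5 genes, Il12a, Il12b and Ebi3. All 3 were higher after LPS, and 13.6% of genes tested did not overlap in that direction. Scaling by library size alone moved the median of all log2 fold changes to -0.32 in CD18fl/fl and -0.23 in cKO BMDCs and turned the split of higher and lower calls from 263 and 233 to 143 and 304 in CD18fl/fl and from 283 and 223 to 186 and 300 in cKO BMDCs. Il12a, Il12b, Il27 and Ebi3 stayed above 0 in both, but Ebi3 no longer passed in cKO BMDCs (1.58, SE 0.36, edgeR adjusted p = 0.0598). Without the block, the Ebi3 call was lost when replicate 1 or 2 of either group was left out, with an edgeR adjusted p of 0.0613 to 0.101, and Il12b passed without replicate 3 of the untreated or of the LPS group (edgeR adjusted p = 0.0164 and 0.0411).

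In cKO BMDCs, 3 of the 5 genes rose after LPS without the block. These were Il12b with a log2 fold change of 4.83 (SE 1.00, edgeR adjusted p = 0.0460), Il12a with 4.54 (SE 0.86, edgeR adjusted p = 0.0407) and Ebi3 with 1.77 (SE 0.32, edgeR adjusted p = 0.0363). Of the 12687 genes tested, 3.99% were called, 2.23% as higher. Il27 stood at 3.38 (SE 1.06, edgeR adjusted p = 0.126) and Il23a was not tested. The block added Il27 as the fourth gene to rise, at 3.02 (SE 0.81, edgeR adjusted p = 0.0413), with a background of 10.2% called as higher. That call was lost on replicates 1 and 2 alone, where Il27 gave 2.39 (SE 1.16, edgeR adjusted p = 0.208). Il12b at 4.13, Il12a at 4.37 and Ebi3 at 1.51 passed there, as did 7.93% of genes in that direction. Values did not overlap, higher after LPS, for 4 of the 5 genes, those tested, and for 14.8% of all genes tested. Without the block, all 3 calls were kept only when the LPS library of replicate 3 was left out. Without the untreated library of replicate 3, Il12b alone passed (edgeR adjusted p = 0.00690), and without replicate 1 or 2 of either group none did.

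**Figure D2:**
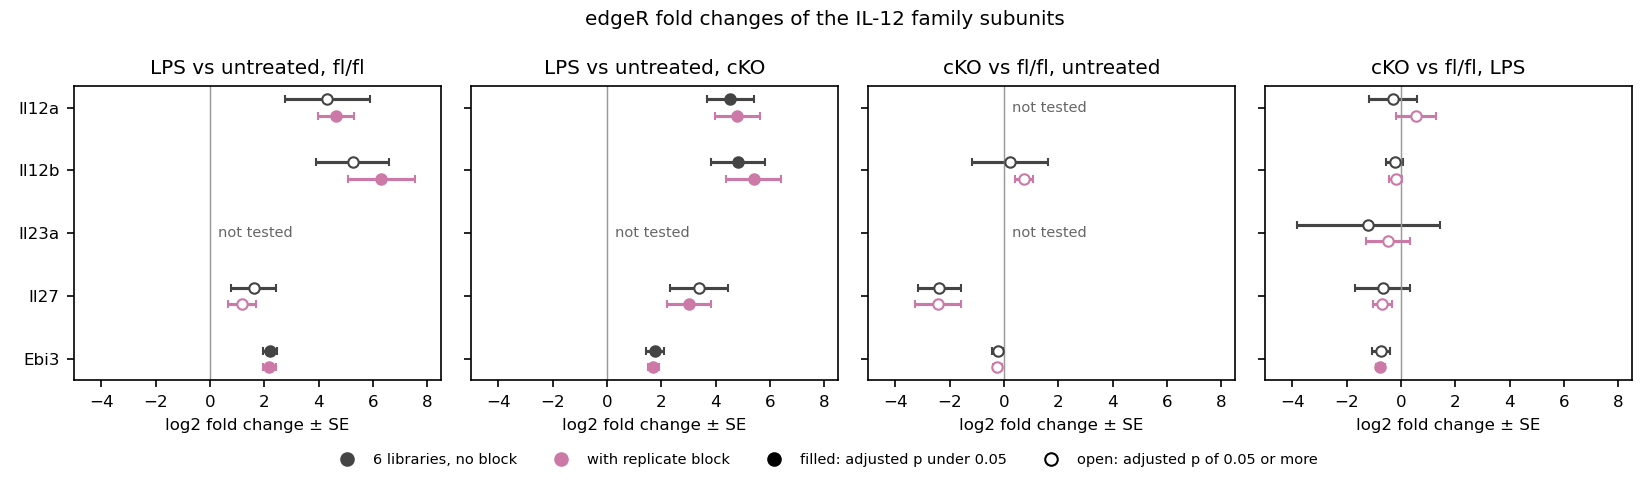
Points are edgeR log2 fold changes and bars their SE, with a panel for each comparison of 3 against 3 libraries. Dark points are without and pink points with the replicate block, and filled points have an adjusted p under 0.05. The LPS panels lie to the right of 0 for every gene tested, and among the genotype panels the only filled point is Ebi3 after LPS with the block, at -0.76.

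A second question was whether the loss of CD18 went with different amounts of these transcripts. The cKO comparisons use the same libraries as the LPS comparisons, so the sets of values are not independent of each other. Without the block, 0 of 12876 genes were called between untreated cKO and CD18fl/fl BMDCs by edgeR (0%), although 2159 had an unadjusted p under 0.05 and DESeq2 called 509. Of the 5 subunits, 3 could be tested. Il27 had the largest difference, a log2 fold change of -2.38 (SE 0.80, edgeR adjusted p = 0.225), and it did not pass with the block either (-2.44, edgeR adjusted p = 0.0783), where 20.2% of genes were called, or on replicates 1 and 2 alone (-2.49, edgeR adjusted p = 0.164). Ebi3 differed by -0.24 (SE 0.20, edgeR adjusted p = 0.580) and Il12b by 0.22 (SE 1.40, edgeR adjusted p = 0.957). Il27 and Ebi3 were lower in every cKO than in every CD18fl/fl library. That makes 2 of the 3 subunits tested, against 13.1% of all genes tested in that direction. In same-numbered pairs, cKO Ebi3 was 0.944, 0.702 and 0.807 times the CD18fl/fl level. Ebi3 passed once an offset for gene length was added to the block (-0.75, SE 0.18, edgeR adjusted p = 0.0342), where 4.16% of genes were called as lower.

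After LPS, Ebi3 was the only subunit called between the genotypes, and only in fits with the replicate block. Its level was 75.6 ± 17.1 RPKM in CD18fl/fl and 46.4 ± 14.6 RPKM in cKO BMDCs, and cKO libraries had 0.710, 0.488 and 0.629 times the level of the same-numbered CD18fl/fl libraries. Without the block the log2 fold change of -0.73 (SE 0.33) did not pass (edgeR adjusted p = 0.537), and 0 of 12441 genes were called by edgeR (0%), with 1212 at an unadjusted p under 0.05 and 153 called by DESeq2. With the block, Ebi3 was lower in cKO BMDCs by -0.76 (SE 0.17, edgeR adjusted p = 0.0328), the only one of the 5 genes to pass, against 3.16% of genes called as lower. On replicates 1 and 2 alone the value was the same, -0.76, and did not pass (edgeR adjusted p = 0.112). Ebi3 was also the 1 gene of the 5 whose LPS libraries did not overlap between genotypes. Of all genes tested, 8.09% were lower in that way.

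The other subunits gave no call between genotypes after LPS. Il12b averaged 2275 ± 677 RPKM in CD18fl/fl and 1959 ± 201 RPKM in cKO BMDCs, a log2 fold change of -0.24 (SE 0.31, edgeR adjusted p = 0.855), and -0.55 on replicates 1 and 2 alone (edgeR adjusted p = 0.137). Il27 was at 0.668, 0.589 and 0.632 times the CD18fl/fl level in the 3 same-numbered pairs, with a log2 fold change of -0.69 (SE 0.35, edgeR adjusted p = 0.247) under the block. Il12a was 2.51 and 4.33 times higher in cKO in pairs 1 and 2 and at 0.306 times in pair 3. Its log2 fold change turned from -0.29 (SE 0.88, edgeR adjusted p = 0.943) to 0.55 with the block and 1.58 on replicates 1 and 2 alone. The Il23a difference of -1.20 (SE 2.64, edgeR adjusted p = 0.919) came almost wholly from replicate 3, where cKO had 0.430 times the CD18fl/fl level.

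Whether the LPS response differed between genotypes was tested as an interaction over all 12 libraries. Il12a, Il12b, Il23a, Il27 and Ebi3 gave differences of 0.31, -0.40, 1.51, 1.78 and -0.41 on the log2 scale. A positive difference means a larger log2 fold change after LPS in cKO BMDCs. None of the 5 passed (edgeR adjusted p = 1.00), and the SE of the difference was 1.32 for Il27 and 0.37 for Ebi3. With the block, Il27 had the lowest unadjusted p of the 5 (1.93, SE 0.79, edgeR unadjusted p = 0.0320) and did not pass after adjustment. Of 13752 genes, edgeR called 0 without and 0 with the block (0%), with 97 and 272 at an unadjusted p under 0.05, and DESeq2 called 1. The differing calls for LPS in the 2 genotypes therefore do not show that the responses differed.

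Because each cytokine needs a pair of chains, the ratios of partner transcripts were computed from reads per kilobase of exon in libraries with at least 10 reads of both genes. After LPS, Il12b exceeded Il12a 1350-, 3580- and 144-fold in CD18fl/fl and 413-, 536- and 669-fold in cKO BMDCs. The cKO ratios lay within the range of the CD18fl/fl ratios, with a difference of -0.74 on the log2 scale (exact permutation test, two-sided p = 0.7, n = 3 per group). With 3 against 3 libraries this test cannot go below 0.1. Set against Il12a and Il23a together, p40 was in excess by 1359-, 3642- and 27.0-fold in CD18fl/fl and by 386-, 538- and 94.6-fold in cKO BMDCs after LPS. The replicate 3 libraries, with their Il23a, had the smallest excess in both genotypes. Il12b made up 90.5% to 98.1% of the summed RPKM of the 5 genes in the 6 LPS libraries.

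For IL-27, Ebi3 exceeded Il27 19.5-, 13- and 8.25-fold in untreated and 42.4-, 41.7- and 10.2-fold in LPS-treated CD18fl/fl BMDCs. The log2 difference was 1.04 (exact permutation test, two-sided p = 0.3, n = 3 per group). In cKO BMDCs after LPS the ratios were 44.7, 34.2 and 10.2, nearly those of CD18fl/fl, with a log2 difference of -0.07 (exact permutation test, two-sided p = 0.9, n = 3 per group). For IL-35, Ebi3 exceeded Il12a 38.3-, 78.7- and 8.92-fold in CD18fl/fl and 10.9-, 8.99- and 18.3-fold in cKO BMDCs after LPS, a log2 difference of -1.30 (exact permutation test, two-sided p = 0.4, n = 3 per group). In each pair the β chain was the more abundant transcript in every library that could be used.

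**Figure D3:**
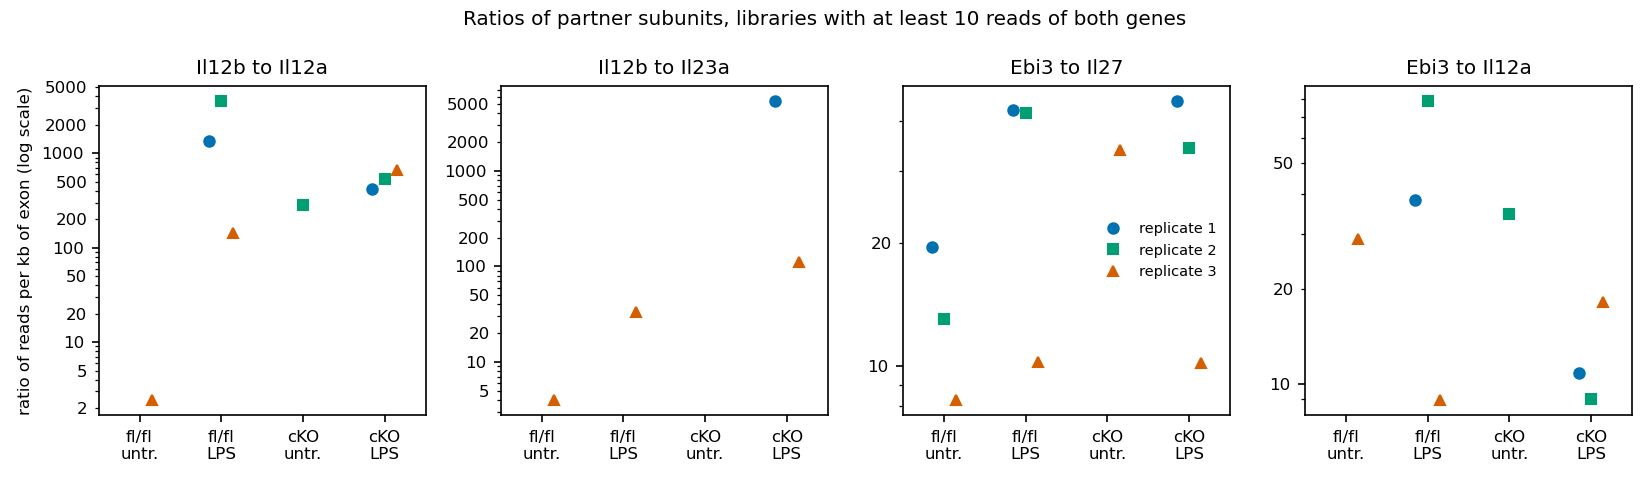
Each panel shows, on a log axis, the ratio of a β chain gene to its α chain partner in reads per kilobase of exon, by group, with a point for each library that had at least 10 reads of both genes. All points lie above 1, the lowest at 2.43 for Il12b to Il12a in an untreated library and the highest at 5406 for Il12b to Il23a in a cKO LPS library with 11 reads of Il23a.

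The receptors for these cytokines were measured in the same cells. Il23r, the chain specific to IL-23, averaged 1.60 and 1.98 RPKM in untreated CD18fl/fl and cKO BMDCs and 13.3 and 13.9 RPKM after LPS. It was lowest in replicate 3 of every group, at 0.0645 and 0.442 RPKM untreated and 1.25 and 1.52 RPKM after LPS, the libraries in which Il23a was found. Il12rb2, the signaling chain for IL-12, averaged 3.31 and 2.51 RPKM untreated and 6.14 and 5.42 RPKM after LPS. Il12rb1, shared by IL-12 and IL-23, was at 0.859 and 0.389 RPKM untreated and 1.65 and 1.01 RPKM after LPS. Il27ra was at 0.675 and 0.402 RPKM untreated, and after LPS at 0.0923 RPKM in CD18fl/fl and at 0 reads in 2 of the 3 cKO libraries. Il6st (gp130), a chain of the receptors for IL-27, IL-35 and IL-6, was at 8.12 and 4.28 RPKM untreated and 4.30 and 3.37 RPKM after LPS.

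Of the 5 receptor genes, 0 were called after LPS by edgeR without the block in either genotype, where 2 in each had an unadjusted p under 0.05 and DESeq2 called 1 in each. With the block 2 of 5 rose in both genotypes, Il23r and Il12rb2, against the 6.33% and 10.2% of genes called as higher in CD18fl/fl and cKO BMDCs. Il23r rose by 3.34 (SE 0.35, edgeR adjusted p = 0.00601) in CD18fl/fl and by 2.53 (SE 0.28, edgeR adjusted p = 0.00259) in cKO BMDCs on the log2 scale. Il12rb2 rose by 0.94 (edgeR adjusted p = 0.0424) and 1.10 (edgeR adjusted p = 0.0122). In CD18fl/fl BMDCs, 2 of 5, Il27ra and Il6st, were lower in every LPS than in every untreated library, as were 15.9% of genes tested. The other receptors overlapped there. In cKO BMDCs only Il27ra was lower in that way, as were 13.4% of genes tested. Il6st overlapped in cKO BMDCs, at 2.27 to 4.03 RPKM after LPS and 2.95 to 5.29 RPKM untreated. Between genotypes, Il6st was lower in untreated cKO BMDCs with the block, by -0.83 (SE 0.17, edgeR adjusted p = 0.0159), 1 of 5 against 8.16% of genes called as lower, and no receptor was called after LPS.

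**Figure D4:**
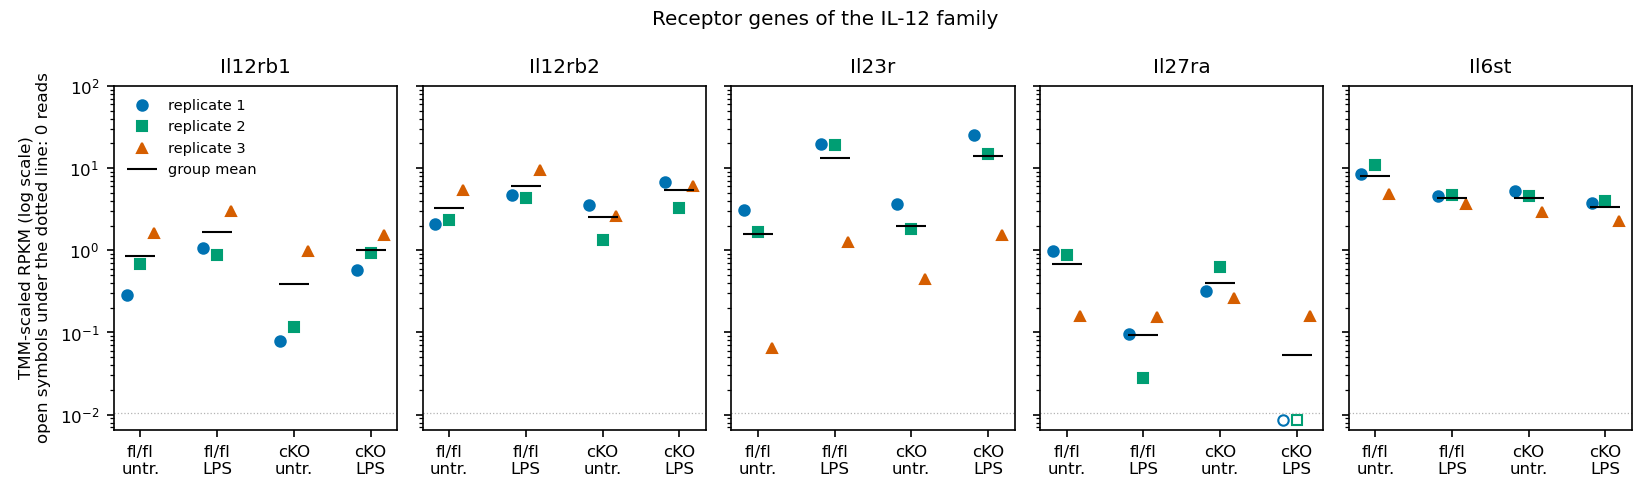
The panels show the TMM-scaled RPKM (log axis) of the 5 receptor genes in the 12 libraries by group, with a symbol for each replicate number and a dash for the mean. Il23r rises with LPS within each replicate number while replicate 3 stays lowest, and open symbols for Il27ra mark the 2 cKO LPS libraries with 0 reads.

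Signal transducers and regulators of the family were taken from lists written by hand. With the block, Stat4, the transducer of IL-12, rose after LPS by 0.99 (SE 0.24, edgeR adjusted p = 0.0493) in CD18fl/fl and by 1.33 (SE 0.20, edgeR adjusted p = 0.00581) in cKO BMDCs on the log2 scale. Among 7 cytokines related to the α chains, of which 4 were tested, Il6 rose in both genotypes already without the block. Its log2 fold changes there were 6.06 (SE 0.80, edgeR adjusted p = 0.0162) in CD18fl/fl and 6.47 (SE 0.42, edgeR adjusted p = 0.00885) in cKO BMDCs. Its level after LPS was 141 ± 14.5 and 233 ± 91.8 RPKM, below that of Il12b.

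Of 11 activators of the transcription of these genes, 0 passed edgeR after LPS without the block in either genotype, with 4 in each at an unadjusted p under 0.05 and 1 in each called by DESeq2. With the block 4 rose in CD18fl/fl BMDCs, and in cKO BMDCs 5 rose and 1 fell, where 6.33% of genes were called as higher in the former and 10.2% as higher and 9.93% as lower in the latter. Rel, Irf1, Irf8 and Batf3 were the 4 that rose in CD18fl/fl BMDCs, at 1.19, 1.65, 1.66 and 1.20 on the log2 scale. In cKO BMDCs Cebpb was the fifth, at 1.02, and Spi1 fell by 0.70. Rel is an NF-κB subunit, and Irf1, Irf8 and Batf3 are transcription factors of interferon responses or of dendritic cells. Of 8 repressors, Atf3, a factor induced by stress and by LPS, rose in cKO BMDCs without the block (2.17, SE 0.45, edgeR adjusted p = 0.0460), and with it 2 of 8 rose in CD18fl/fl BMDCs, Atf3 and Nfil3, and 4 of 7 tested in cKO BMDCs, these and Bcl3 and Socs1, against the same shares of higher calls. The median log2 fold change after LPS in CD18fl/fl BMDCs was 3.27 for the 4 subunits tested, 0.90 for the receptors, 0.75 for the activators and 1.29 for the repressors, and -0.02 for all genes.

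Between genotypes, the lists gave calls only with the block. In untreated BMDCs 12.1% of genes were called as higher and 8.16% as lower in cKO. There, 3 receptor kinases and STATs were lower, Jak1 at -0.60, Stat3 at -0.53 and Stat4 at -0.53. Of the 11 activators, Batf3 was higher at 0.72 and 3 were lower, Cebpb at -1.10, Rela at -0.69 and Irf8 at -0.50. Among repressors, 1 of 7 tested, Socs3, was lower at -0.87, and among related cytokines 1 of 4 tested, Osm, at -0.68. After LPS, where 6.98% of genes were called as higher and 3.16% as lower, Lif was lower by -1.0 (edgeR adjusted p = 0.0109) and Batf3 was higher by 0.94 (edgeR adjusted p = 0.0263).

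Across the 12 libraries, the genes whose log2 CPM ran most like that of each subunit were sought among 13752 genes. These correlations describe 12 libraries in 4 groups that share replicate numbers. For Il12b they were Mx2 (r = 0.989), Ifi211 (0.985) and Oas1a (0.984), all known as interferon-inducible genes. Mx2 was at 0.112 and 0.186 RPKM in the untreated replicate 3 libraries, 0.751 to 0.849 in the other untreated ones, and 6.61 to 8.33 after LPS, the same layout as Il12b. For Ebi3 they were Plekhn1 (0.967), Ehd1 (0.967) and Cdc42ep2 (0.965), for Il12a Dll4 (0.958), Ino80d (0.951) and Adhfe1 (0.938), for Il23a Tcp11l1 (0.960), S1pr3 (0.953) and Epop (0.945), and for Il27 Mark4 (0.949), Setd5 (0.947) and Larp4b (0.944). Il23a had 0 reads in most libraries, so its correlations, also those with other subunits, rest mainly on replicate 3. Dll4 had at most 4 reads in any untreated library. Among the subunits themselves, Il12a and Ebi3 were most alike (r = 0.823), followed by Il12b and Ebi3 (0.791) and Il23a and Il27 (0.790), and Il12b and Il23a were least alike (0.240).

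Markers of other cells moved with LPS and with the replicate number. Of 7 macrophage markers, 3 fell after LPS in CD18fl/fl BMDCs without the block, the complement genes C1qa, C1qb and C1qc, and 1 in cKO BMDCs, C1qa, against 1.83% and 1.76% of genes called as lower. Adgre1, which encodes the macrophage marker F4/80, did not pass and was at 171 to 198 RPKM after LPS against 126 to 152 RPKM untreated in CD18fl/fl BMDCs. The log2 fold changes of C1qa were -3.03 (edgeR adjusted p = 0.0138) and -3.96 (edgeR adjusted p = 0.0415). The summed macrophage markers were at 1046 to 1203 RPKM in untreated and 526 to 634 RPKM in LPS-treated CD18fl/fl BMDCs, and at 1137 to 1686 and 218 to 484 RPKM in cKO BMDCs. After LPS with the block, 2 of the 7, Cd68 and Adgre1, were lower in cKO BMDCs, at -1.13 and -1.05, beside the lower Ebi3 and against 3.16% of genes called as lower. In untreated BMDCs with the block these 2 were lower in cKO as well, at -0.87 and -0.70, but C1qa, C1qb and Fcgr1 were higher, at 0.73, 0.77 and 0.67. The 7 dendritic cell markers summed to 8921 to 25320 RPKM over all libraries, with none at 0. Most of that sum came from H2-Aa, H2-Ab1 and Cd74, whereas Flt3 was at 0.0620 to 9.70 RPKM. Because the cells had been enriched for MHCII, the sum does not measure the share of dendritic cells.

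The 5 B cell markers summed to 0.557 to 50.5 RPKM in untreated and 1.34 to 11.2 RPKM in LPS-treated CD18fl/fl BMDCs, and to 0.307 to 70.7 and 1.01 to 20.7 RPKM in cKO BMDCs. The 7 neutrophil markers gave 17.7 to 2159 and 23.0 to 83.3 RPKM in CD18fl/fl, and 19.4 to 348 and 26.4 to 137 RPKM in cKO BMDCs. The 5 T or NK cell markers gave 5.93 to 19.3 and 0.780 to 2.25 RPKM, and 1.49 to 24.0 and 0.935 to 3.43 RPKM, and the 4 mast cell or basophil markers 2.43 to 24.1 and 0.207 to 10.8 RPKM, and 3.70 to 80.2 and 1.34 to 51.3 RPKM. Elane, Mpo, Ncr1 and Klrb1c had 0 reads in all 3 cKO LPS libraries, and Klrb1c also in all 3 CD18fl/fl LPS libraries. In every group, replicate 3 had the lowest B cell and neutrophil sums and the highest mast cell or basophil sum. Its T or NK cell sum was also the lowest, except in LPS-treated CD18fl/fl BMDCs (1.55 RPKM). The part of these cells in the subunit values was not tested.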

How the data were processed

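RNA-seq was performed on poly(A) RNA of MHCII-positive BMDCs, as single-end reads. The authors trimmed adapters, mapped the reads in CLC Genomics Workbench (genome GRCm39) and, for each library, deposited counts as total gene reads along with unique reads, TPM and RPKM. The processing notes in the labels name GRCm38, whereas gene coordinates in the deposited tables follow GRCm39. The deposited TPM values were not tested.

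Total gene reads were tested in edgeR 4.0.16 under R 4.3.3 (filterByExpr with a minimum count of 10, TMM, quasi-likelihood test, Benjamini-Hochberg adjustment, threshold 0.05). The SE is the log2 fold change divided by the square root of F. Pairwise tests used 6 libraries and the interaction 12. Levels are RPKM computed here from total gene reads with TMM-scaled library sizes. The floor was set at 3 reads. Pairing by replicate number comes from the library titles. Deviations from group means had a mean r of 0.454 over 12 same-numbered and -0.208 over 24 other pairs. Such deviations cancel out within a group, so values for other pairs fall as same-numbered ones rise. The contrast came mainly from replicate 3, so it does not settle the pairing of the other replicate numbers. Whether same-numbered libraries were prepared together is not given in the sources used here. The most alike of 66 library pairs differed beyond counting error (chi-squared per degree of freedom 43.5).

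Members and gene lists were chosen with earlier results of these data known. The text names the 5 subunits, Itgb2, the receptors, for each list, at most 2 genes per direction and comparison (lowest adjusted p), and the 3 genes most correlated with each subunit. Marker values, and the members of other lists that rose or fell only with the block after LPS, and Stat4 and Irf8, were named after their values were seen. Alternatives were library size scaling, other count filters, unique reads, DESeq2 1.42.0, the replicate block with and without a gene length offset, all 12 libraries, and each library left out. Replicates 1 and 2 alone and DESeq2 with the block were added after seeing the data. The scripts were tested on simulated data. 1 gene of the lists is not reported here.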

Additional observations from a re-analysis of the deposited data

How the results depend on the processing

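Depth limits Il12a, Il23a and Il27, which rest on few reads in most untreated libraries. All values for LPS in both genotypes kept their direction under every alternative run. With 1 library left out, the log2 differences of subunit ratios between genotypes after LPS ran from -2.05 to 0.26 for Il12b to Il12a, turning above 0 without CD18fl/fl replicate 2, from -0.75 to 0.57 for Ebi3 to Il27, turning above 0 without cKO replicate 3 or CD18fl/fl replicate 1 or 2, and from -2.18 to -0.61 for Ebi3 to Il12a. On replicates 1 and 2 alone they were -2.22, -0.11 and -2.47.

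After LPS in CD18fl/fl BMDCs, the number of subunits that rose was 1 and became 2 with no filter on low counts and with all 12 libraries, and 3 with DESeq2, with the replicate block, with the block and gene length offset, with replicates 1 and 2 only and with DESeq2 and the block. Leaving out 1 library gave 0 to 2, and in cKO BMDCs 0 to 3 against 3. Between genotypes, 1 subunit (Ebi3) became lower with the block and length offset when untreated, and with the block, the block and length offset, and DESeq2 with the block after LPS.

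Over all genes, calls after LPS in CD18fl/fl BMDCs moved from 496 to 1795 (DESeq2), 1627 (replicate block), 1788 (block and length offset), 1068 (all 12 libraries), 6140 (replicates 1 and 2 only) and 3132 (DESeq2 with block), and to 0 to 3268 with 1 library left out. In cKO BMDCs they moved from 506 to 805 (no filter), 1534, 2560, 2569, 983, 2049 and 3377 in the same order, and to 0 to 1033 with 1 library left out. Between untreated genotypes, 0 became 509, 2606, 1509, 19, 1383 and 3053. After LPS, 0 became 1 (no filter), 153, 1262, 973, 45, 523 and 1877, and 0 to 1 with 1 library left out. The interaction went from 0 to 1 with DESeq2 and 130 with DESeq2 and the block.

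Direction reversed for 21 log2 fold changes, none of them past the threshold. Between untreated genotypes, Il12b gave -0.19 with library size scaling and -0.36 to 1.09 with 1 library left out. After LPS, Il12a gave 0.55 (replicate block), 0.23 (block and length offset), 1.58 (replicates 1 and 2 only), 0.64 (DESeq2 with block) and -0.73 to 1.48 (1 library left out). Il23a gave 1.24 (DESeq2 with block) and -6.56 to 11, and Il27 -2.14 to 0.75. In the interaction, Il12a gave -0.50 (replicates 1 and 2 only) and -2.17 to 1.94, Il12b -1.36 to 0.10 and Il23a -3.82 to 13.84. The cause was not tested.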
